A study of Mus musculus with 10 samples.

Results

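Clustered protocadherins are cadherin-like adhesion proteins encoded by tandem gene arrays called alpha, beta and gamma. The mouse members were taken by symbol, as protein-coding genes named Pcdha, Pcdhb, Pcdhga, Pcdhgb or Pcdhgc with a number, or Pcdhac1 and Pcdhac2. Of the 46517 genes in each table, 57 met that rule, and they lie in a row on the plus strand of chromosome 18. On mm10 with GENCODE vM21 the row starts at 36930184 with Pcdha1, has its beta genes between 37264938 and 37524479, and ends at 37841873 with Pcdhgc5. They are 14 alpha genes (12 variable and the C-type genes Pcdhac1 and Pcdhac2), 22 beta genes and 21 gamma genes (12 of gamma A, 6 of gamma B and 3 of gamma C).

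Tumour cells were sorted from malignant peripheral nerve sheath tumours (MPNST), sarcomas that arise in the Schwann lineage, which were carried as mouse allografts, and their RNA was sequenced. There were 5 models (A to E), and from each a library of GFP+ cells, which express the CGD transgene, was paired with a library of GFP- cells, which do not. All 10 libraries came from collagenase-dissociated fresh tumours from which wild-type and dead cells had been gated out. The labels do not expand CGD, do not give the host strain, the tumour genotype, the promoter of the transgene or any age, and do not say whether a model is 1 animal.

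In neurons, each cell chooses a few variable promoters of these arrays, with CTCF and cohesin looping the chosen promoters to distant enhancers and DNA methylation keeping the others silent. The proteins bind only matching partners on neighbouring cells, which gives a neuron a surface identity used in self-avoidance of its branches. Each alpha or gamma gene contributes its own variable first exon, spliced to constant exons that its whole cluster shares, whereas each beta gene is its own short transcription unit with no shared constant exon. Reads in exons shared by several genes are assigned to none of them, so the alpha and gamma values below rest on each gene's own exon bases, and most weight is given to the beta genes.

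Reads in genes numbered 15978673 to 22082207 per library, and 18693 to 20454 genes had at least 1 read. Levels are counts scaled to 1000000 reads in genes (CPM). Leading genes and levels along a cluster were compared as CPM per kb of own exon. Summed levels, cluster shares and the most abundant genes of a group or list were taken from CPM, uncorrected for gene length. In model D, Xist, the long RNA that coats the inactive X chromosome, had 103 CPM in GFP+ cells against 2.82 CPM in GFP- cells. No such gap was seen in model C (724 against 615 CPM) or model E (567 against 565 CPM), and model B had 1049 CPM against 523 CPM. Model A had almost no Xist in either population (0.111 against 0.0514 CPM), too little to show a gap. Several results in which model D weighed are therefore also given without it. These are bulk samples, in which fewer cells carrying a transcript and less of it per cell cannot be told apart.

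Gamma genes supplied most of the clustered protocadherin reads in every library, beta genes fewer and alpha genes almost none. Gamma took 77.4% to 93.4% of the summed CPM of the 57 genes, beta 6.58% to 22.5% and alpha 0.0391% to 1.51%. Within gamma, the single gene Pcdhgc3 averaged 232 CPM over all libraries, and the 18 gamma A and B genes together had 102 to 218 CPM. The summed gamma level was 393 ± 74.4 CPM in GFP+ cells against 416 ± 79.6 CPM in GFP- cells (SD, n = 5 each). The summed beta level was 74.4 ± 45.2 CPM in GFP+ cells against 73.9 ± 45.2 CPM in GFP- cells (SD, n = 5 each). The mean difference within pairs, GFP+ minus GFP- on the log2 scale, was -0.08 ± 0.19 for gamma and 0.0055 ± 0.80 for beta (SD, n = 5 pairs). For gamma A and B without gamma C it was -0.12 ± 0.31 (SD, n = 5 pairs). The populations thus had much the same average, while the 5 pairs scattered around it, most widely for beta.

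**Figure D1:**
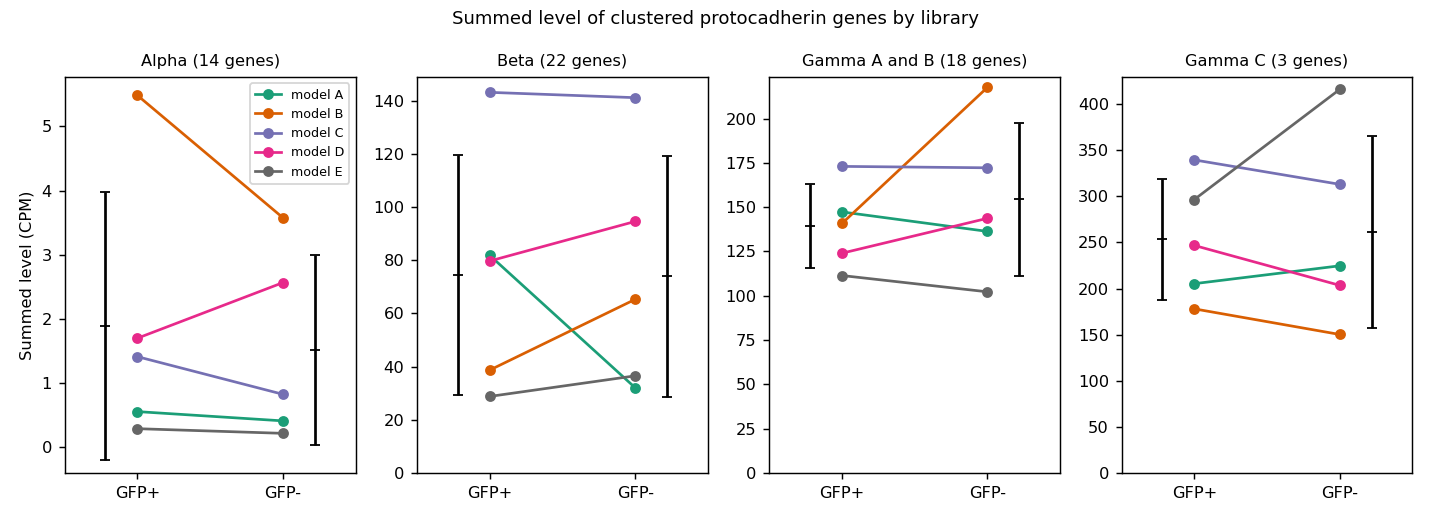
Summed level in CPM of alpha, beta, gamma A and B, and gamma C genes in GFP+ and GFP- cells. Points joined by a line are the pair of 1 tumour model and the black bars are the mean and SD of 5 libraries. The beta sum of model A reaches 81.8 CPM in GFP+ cells against 32.0 CPM in GFP- cells, and the lines of the other models slope the opposite way or lie flat.

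The alpha genes were close to silent. All 12 variable alpha genes together held 61 reads over the 10 libraries. Pcdha10 held more of them than any other variable gene, with 0.543 CPM in GFP+ cells of model C against 0.440 CPM in its GFP- cells, and at most 0.0514 CPM in any other library. Pcdha1 and Pcdha4 had 0 reads, which allows up to 0.0159 CPM over all libraries together (3 reads, counting error only). For Pcdha4 only 494 of its 5768 exon bases are its own.

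The exception was Pcdhac2, the C-type alpha gene known for spacing the axons of serotonergic neurons, whose promoter lacks the conserved element of the variable genes. It had 0.5001, 5.06, 0.217, 1.54 and 0.145 CPM in GFP+ cells of models A to E, against 0.257, 3.26, 0.165, 1.94 and 0.108 CPM in GFP- cells. Models B and D were thus the highest in both populations, and the other 3 models were at or under 0.5001 CPM. Pcdhac1, the other C-type alpha gene, did not pass 0.160 CPM in any library.

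Beta genes were read from all through the cluster, but unevenly. Of the 22 genes, 10 to 21 reached 0.5 CPM in a library, the fewest in GFP- cells of model A and the most in both populations of model C. Per length, Pcdhb22, Pcdhb5 or Pcdhb17 was the leading beta gene in every library, and the 3 leading genes held 38.0% to 57.5% of the beta level. Levels per length were higher towards the end of the cluster nearer the gamma genes, with a Spearman correlation of 0.60 between gene order and mean level over 22 genes, and of 0.27 to 0.71 in single libraries. This is a description over neighbouring genes of the same libraries. Pcdhb1, which has no conserved promoter element, had 1 read in all.

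**Figure D2:**
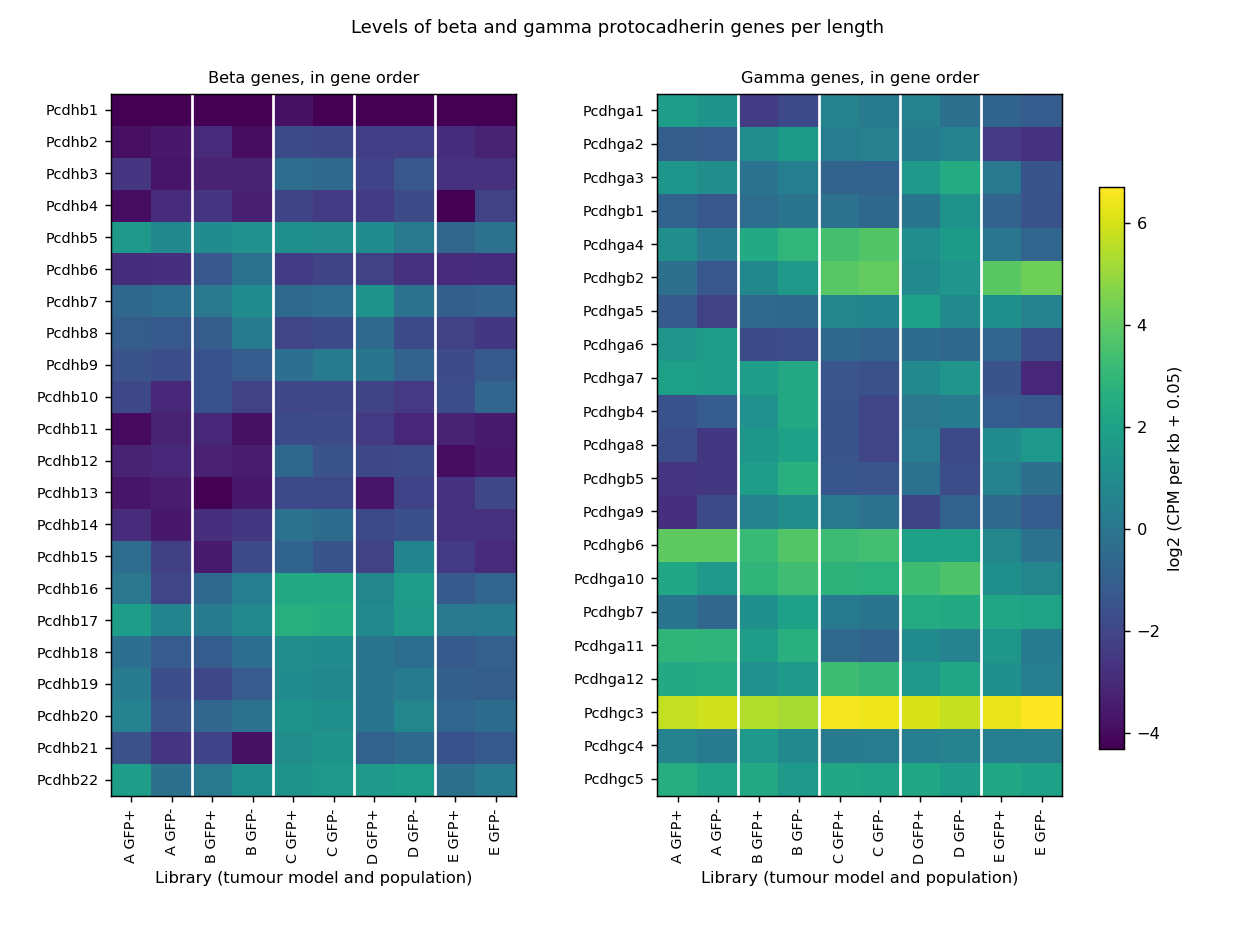
Levels of the 22 beta and 21 gamma genes, in gene order from top to bottom, in the 10 libraries, as log2 of CPM per kb of own exon plus 0.05. Pairs of columns are GFP+ and GFP- cells of 1 tumour model. Pcdhgc3 is the brightest row in every library, and the bright gamma A and gamma B rows differ from model to model but repeat within each pair.

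Pcdhb22, the last beta gene, had 22.1, 6.23, 14.7, 18.7 and 4.92 CPM in GFP+ cells of models A to E. In GFP- cells of the same models it had 4.93, 13.7, 18.1, 22.1 and 7.16 CPM. The populations covered the same range, and model A alone had more in GFP+ cells. Pcdhb17 had 16.2, 5.17, 27.6, 8.77 and 4.78 CPM in GFP+ cells against 7.09, 8.51, 26.6, 14.02 and 5.21 CPM in GFP- cells. Pcdhb16 had 5.22, 3.30, 27.0, 8.44 and 1.98 CPM in GFP+ cells against 1.03, 6.61, 26.1, 17.1 and 2.93 CPM in GFP- cells. For both genes the libraries of model C were the highest and nearly equal to each other. Pcdhb5 had 10.4, 6.98, 7.93, 7.13 and 2.03 CPM in GFP+ cells against 6.22, 8.24, 7.32, 3.69 and 2.93 CPM in GFP- cells. Its highest model mean was 3.36-fold its lowest, against 3.38-fold for Pcdhb22, 5.43-fold for Pcdhb17 and 10.8-fold for Pcdhb16.

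The mid-cluster genes included Pcdhb7, with 2.17, 3.62, 2.28, 8.39 and 1.59 CPM in GFP+ cells of models A to E against 2.62, 7.16, 2.53, 3.004 and 1.79 CPM in GFP- cells. Its highest GFP+ library was model D and its highest GFP- library was model B. Pcdhb14 had 7.39 CPM in GFP+ cells of model C against 6.16 CPM in its GFP- cells, and 0.308 to 2.38 CPM in the 8 other libraries. Pcdhb21 likewise had 9.02 CPM in GFP+ cells of model C against 10.8 CPM in its GFP- cells, and 0.0906 to 2.75 CPM elsewhere. Both genes therefore separated model C from every other library. Pcdhb18 averaged 4.64 ± 3.58 CPM in GFP+ cells against 4.40 ± 3.24 CPM in GFP- cells (SD, n = 5 each). Pcdhb19 averaged 6.75 ± 4.90 CPM in GFP+ cells against 5.67 ± 4.47 CPM in GFP- cells. Pcdhb20 averaged 4.28 ± 2.86 CPM in GFP+ cells against 4.08 ± 2.76 CPM in GFP- cells. Model C was the highest in both populations for these 3 genes as well. Pcdhb6, Pcdhb8, Pcdhb9, Pcdhb10 and Pcdhb15 averaged 0.631 to 1.56 CPM in GFP+ cells against 0.651 to 1.67 CPM in GFP- cells. Pcdhb2, Pcdhb3, Pcdhb4, Pcdhb11, Pcdhb12 and Pcdhb13 averaged 0.284 to 0.894 CPM in GFP+ cells against 0.271 to 0.900 CPM in GFP- cells.

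The populations' beta levels differed by size and direction from model to model. In model A the summed beta level was 81.8 CPM in GFP+ cells against 32.0 CPM in GFP- cells, a ratio of 2.55. In model B it was 38.7 CPM against 65.3 CPM, a ratio of 0.592. Models C, D and E had ratios of 1.01, 0.843 and 0.788. In model D single genes lay on either side of 0, from a log2 difference of 1.45 for Pcdhb7 to -2.86 for Pcdhb15. Without model A the mean difference of the beta sum within pairs was -0.33 on the log2 scale. The summed CPM of 10 fibroblast marker genes was higher in GFP+ cells in model A alone, at 34810 CPM in GFP+ cells against 25880 CPM in GFP- cells. It was 28960 against 36960 CPM in model B, 18790 against 19640 CPM in model C, 30920 against 40000 CPM in model D and 19760 against 20070 CPM in model E, and its part in the beta differences was not tested. That sum is mostly collagen, such as Col3a1 with 19090 CPM in GFP+ cells against 12790 CPM in GFP- cells of model A. In the same model 5 of the 10 markers were lower in GFP+ cells, among them Pdgfra with 1308 CPM against 1889 CPM.

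**Figure D3:**
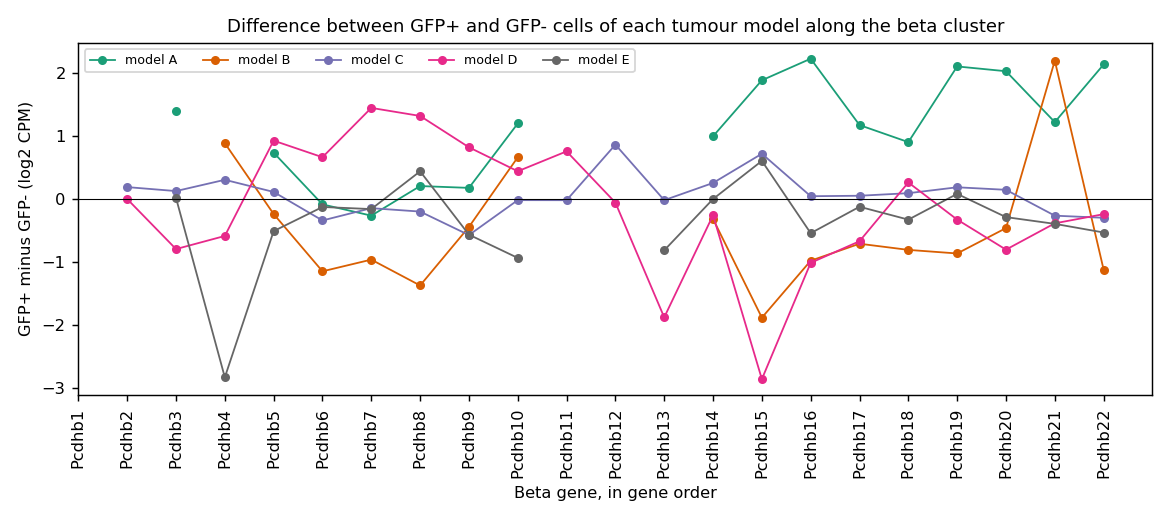
Difference between GFP+ and GFP- cells of each tumour model (log2 CPM, prior count of 2) for the 22 beta genes in gene order, drawn where the pair held at least 10 reads. Model A (green) lies above 0 at each of the last 9 genes, from 0.91 at Pcdhb18 to 2.23 at Pcdhb16, and model C (violet) stays no farther than 0.87 from 0, at Pcdhb12.

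Gamma A and gamma B genes, the variable genes of the gamma cluster, had a model-by-model pattern that GFP+ and GFP- cells shared. Per length, the leading gamma A or gamma B gene was the same in GFP+ and GFP- cells in 5 of 5 models. It was Pcdhgb6 in models A and B, Pcdhgb2 in models C and E, and Pcdhga10 in model D. The 3 leading genes held 40.7% to 72.8% of the gamma A and B level.

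Pcdhgb2 had 39.7 CPM in GFP+ cells of model C against 45.4 CPM in its GFP- cells and 40.7 and 53.6 CPM in model E. In models A, B and D it had 2.22, 4.74 and 5.10 CPM in GFP+ cells against 0.977, 8.42 and 7.45 CPM in GFP- cells. Pcdhgb2 was thus high in both populations of models C and E and low in both populations of the other 3 models. Pcdhgb6 had 39.6, 22.7, 24.0, 9.93 and 4.25 CPM in GFP+ cells of models A to E against 40.7, 34.3, 27.3, 9.45 and 2.12 CPM in GFP- cells. Model A was highest and model E lowest for Pcdhgb6, in both populations. Pcdhga10 had 12.3, 19.6, 18.4, 25.3 and 5.79 CPM in GFP+ cells against 8.07, 26.0, 17.1, 32.6 and 4.23 CPM in GFP- cells, with model D highest and model E lowest in each.

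Other gamma genes set off other models. Pcdhga1, the first gamma gene, had 11.4, 0.479, 4.78, 4.50 and 1.74 CPM in GFP+ cells of models A to E against 8.28, 0.725, 3.52, 2.57 and 1.36 CPM in GFP- cells. Pcdhga2, its neighbour, had 1.11, 5.43, 3.10, 2.797 and 0.338 CPM in GFP+ cells against 1.03, 8.15, 3.52, 3.76 and 0.271 CPM in GFP- cells. Adjacent genes therefore peaked in different models, Pcdhga1 in model A and Pcdhga2 in model B. Pcdhga12, the last gamma A gene, had 24.3, 10.8, 43.9, 14.2 and 10.47 CPM in GFP+ cells against 25.2, 13.5, 36.3, 22.3 and 5.86 CPM in GFP- cells, with model C highest in both. Pcdhga11 averaged 8.64 ± 6.79 CPM in GFP+ cells against 8.80 ± 8.38 CPM in GFP- cells (SD, n = 5 each), highest in model A. Pcdhgb7 averaged 7.41 ± 5.25 CPM in GFP+ cells against 7.71 ± 5.41 CPM in GFP- cells (SD, n = 5 each), highest in model D. A single gamma A or B gene spanned 4.06-fold to 42.6-fold between its highest and lowest model mean. The widest span was that of Pcdhgb5, a gene named after its values were seen.

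The whole profile of gamma A and B genes was alike in the populations of a model. Over the 18 genes, Pearson's r of log2 CPM between GFP+ and GFP- cells of the same model was 0.767 to 0.994 with a median of 0.964. Between libraries of different models it was -0.188 to 0.570 with a median of 0.291. The lowest value within a model was that of model D, and without model D the range was 0.949 to 0.994. Each of the 10 libraries was most like the other library of its own model. For the 16 beta genes that passed the filter on low counts, r was 0.791 to 0.987 within models and 0.443 to 0.919 between them, and 5 of 10 libraries were most like their own pair. These correlations are across genes, which are not independent replicates, and the libraries share the genes' lengths and sequence.

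**Figure D4:**
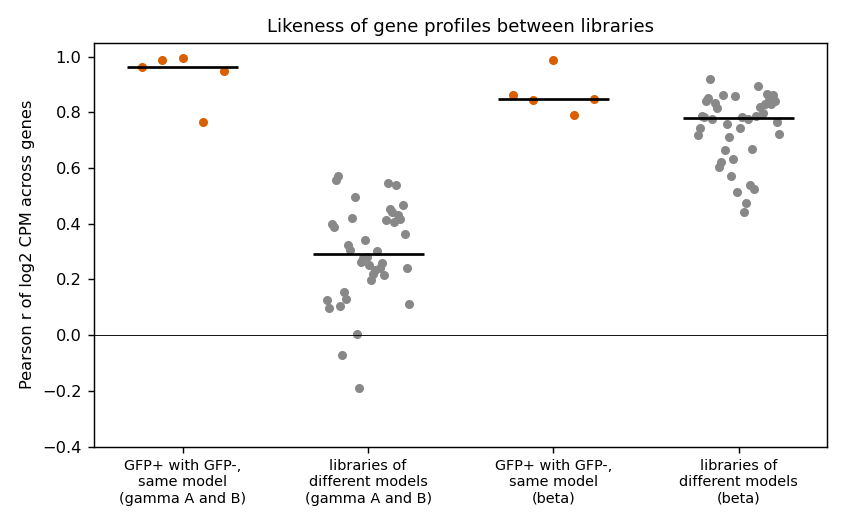
Pearson's r of log2 CPM across 18 gamma A and B genes and 16 beta genes, for the 5 pairs of GFP+ and GFP- cells of 1 model and the 40 pairs of libraries from different models, with medians as black lines. Gamma A and B profiles within a model (0.767 to 0.994) lie above all those between models (-0.188 to 0.570), while the beta ranges overlap.

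The 3 gamma C genes are C-type genes of the gamma cluster. Pcdhgc3, a broadly expressed C-type gene whose protein binds Axin1 and restrains Wnt signalling, was the leading gamma gene per length in all 10 libraries, at 38.3 to 116.5 CPM per kb. It had 173, 144, 313, 221 and 269.7 CPM in GFP+ cells of models A to E against 200.9, 129.5, 289, 182 and 394 CPM in GFP- cells. Model B was the lowest in both populations. Pcdhgc4, needed for the survival of cortical interneurons, had 5.17, 10.3, 3.802, 4.55 and 4.54 CPM in GFP+ cells against 3.96, 6.34, 4.24, 5.01 and 4.39 CPM in GFP- cells, and model B was the highest in both populations.

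Pcdhgc5, a C-type gene of maturing neurons, was the member whose populations did not overlap. It had 26.7, 23.3, 22.5, 21.6 and 22.4 CPM in GFP+ cells of models A to E against 19.9, 14.3, 19.8, 16.8 and 18.01 CPM in GFP- cells. Every GFP+ library was above every GFP- library, as was so for 0.122% of the 13986 genes tested, and for 0 members, against 0.0572% of genes, was every GFP+ library below every GFP- library. The log2 difference was 0.36 (SE 0.10), from 0.16 to 0.57 within 2 SE, with an unadjusted p of 0.00749. It was not called, with an adjusted p of 0.393 by edgeR's quasi-likelihood test with Benjamini-Hochberg adjustment over all genes tested, and of 0.215 by DESeq2. Over the alternatives with the model as a block the log2 difference was 0.30 to 0.41 and the adjusted p 0.215 to 0.836, the highest without model D. The summed CPM of 12 neuron marker genes was 131 to 356 CPM in GFP+ cells against 69.6 to 204 CPM in GFP- cells, higher in GFP+ cells in models A, B, D and E. In model C it was 193 CPM in GFP+ cells against 204 CPM in GFP- cells, and its part in the Pcdhgc5 difference was not tested. Gap43 and Stmn2 weighed most in that sum, with means of 68.5 and 55.7 CPM over all libraries. Of 9 tested neuron markers 7 had a positive fitted difference and 2 a negative one, Syt1 (-0.35) and Map2 (-0.12). Rbfox3, which marks mature neurons, was at 0 in GFP+ cells and at 0.0110 CPM in GFP- cells.

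Whether the populations differed was tested in pairs, with tumour model as a block, over the 13986 genes that passed edgeR's filter on low counts. That filter kept 37 of the 57 members, 0 of 14 alpha, 16 of 22 beta (Pcdhb4 to Pcdhb10 and Pcdhb14 to Pcdhb22) and 21 of 21 gamma genes. With the threshold at 0.05 for the Benjamini-Hochberg adjusted p of edgeR's quasi-likelihood test, 0 of the 37 members passed, as were 0% of all genes. DESeq2 called 0 members and 1.42% of all genes. At an unadjusted p under 0.05 there were 2 members against 8.99% of all genes. These were Pcdhgc5 and Pcdhga5, a gamma A gene with 0.945, 1.65, 4.18, 9.98 and 5.74 CPM in GFP+ cells against 0.463, 1.54, 3.96, 4.88 and 3.69 CPM in GFP- cells.

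Pcdhga5 had a log2 difference of 0.52 (SE 0.22, adjusted p = 0.552 by the same edgeR test) and was higher in GFP+ cells in 5 of 5 pairs, although its populations overlapped widely. Its largest pair difference was that of model D (1.02). Without model D its fitted difference was 0.39, with an adjusted p of 0.912 by that edgeR test. Pcdhgc5 and Pcdhga5 were the 2 members higher in GFP+ cells in every pair, against 6.51% of all genes, and 0 members were lower in every pair, against 3.38%. The next smallest p belonged to Pcdhga1 (log2 difference 0.35), Pcdhga2 (-0.28) and Pcdhgb2 (-0.30), each with an adjusted p of 0.681 or more. Of the 37 members 19 had a positive and 18 a negative fitted difference, with a median of 0.00013 against -0.0028 for all genes. The absolute difference within a pair had a median of 0.46 over the members against 0.22 over all genes, and the members had no common direction. It was 0.48 for the beta genes, 0.48 for gamma A and B and 0.21 for gamma C. The genes were not matched for level, and counting error widens the differences of genes with few reads. For the beta genes the fitted differences were -0.71 to 0.25, and Pcdhb16, Pcdhb17 and Pcdhb22 had differences of -0.19 (SE 0.45), -0.09 (SE 0.28) and -0.09 (SE 0.43).

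Most tested members differed between the 5 tumour models, as did most genes. By the quasi-likelihood F test with sorted population as a covariate, 27 of 37 members passed a Benjamini-Hochberg adjusted p of 0.05, against 54.7% of all genes tested. DESeq2 called 30 members against 60% of all genes. The range between the highest and lowest fitted model had a median of 2.78 on the log2 scale over the members against 0.95 over all genes, which were not matched for level. These p-values set differences between models against the spread within pairs. The labels do not say whether the cells of a model came from 1 tumour or animal, and whether another tumour of the same model would give the same levels was not measured.

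By group, gamma A had 12 of 12 genes called, gamma B 5 of 6, gamma C 1 of 3 and beta 9 of 16 (56.25%, near the 54.7% of all genes). Without model C, 8 of the 9 called beta genes were tested again and 0 passed. Their adjusted p-values were 0.0636 to 0.412 by the same edgeR test, and Pcdhb6 was not tested. Over all genes the calls also fell, from 7655 of 13986 to 4038 of 14115. Pcdhb5, highest in model A, kept its log2 range of 1.66 without model C (adjusted p = 0.0746 by that test). Without model E, 5 of the 9 beta calls were lost, and 5404 of 14140 genes were called. The median log2 range was 3.604 for gamma A and B, 2.29 for beta and 1.01 for gamma C. The smallest adjusted p-values by the edgeR quasi-likelihood test were those of Pcdhgb2 (0.000685, highest in model E), Pcdhga2 (0.00109, model B), Pcdhga1 (0.0015, model A), Pcdhgb6 (0.00171, model A) and Pcdhb14 (0.0018, model C). The called beta genes were Pcdhb5, highest in model A, Pcdhb6, highest in model B, and Pcdhb9, Pcdhb14, Pcdhb16, Pcdhb17, Pcdhb18, Pcdhb19 and Pcdhb21, all highest in model C. Their fold between the highest and lowest model mean ran from 3.31 for Pcdhb9 to 22.3 for Pcdhb21. Pcdhb4, Pcdhb7, Pcdhb8, Pcdhb10, Pcdhb15, Pcdhb20 and Pcdhb22 were not called, nor were Pcdhgb1, Pcdhgc4 and Pcdhgc5. Pcdhgc5 had the smallest span of all members tested, 1.24-fold, while Pcdhgc3 was called with a span of 2.42-fold (adjusted p = 0.00592 by the edgeR test).

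For 22 of the 37 members, the libraries of the highest model lay above all 8 others, against 44.6% of all genes tested. The tested gamma A and B genes were highest in model B (6 genes), model D (5), model A (4), model C (2) and model E (1). The tested beta genes were highest in model C (8 genes), model D (4), model B (2), model A (1) and model E (1). Without model C, 17 of 35 members were called in place of 27 of 37, and 10 of the 27 lost their call, 8 beta and 2 gamma A genes. Over all genes, 4038 of 14115 were called without model C, in place of 7655 of 13986. Without model D, 29 of 36 members and 7022 of 13886 genes were called. The summed fibroblast markers were lowest in model C in both populations, with 18790 CPM in GFP+ cells against 19640 CPM in GFP- cells, and their part in the model C levels was not tested. Their members did not move together, since Dcn was highest in model C, with 10150 CPM in GFP+ cells against 9345 CPM in GFP- cells and 68.6 to 2622 CPM in the other models. With no filter on low counts 35 of 55 members were called by the edgeR test against 31.9% of all genes, and the 5 of these that the filter had left out were Pcdhac2 (adjusted p = 2.84e-05), Pcdhb3, Pcdhb12, Pcdha10 and Pcdhb13.

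Among the 12 protocadherins outside the clusters, single genes of the delta and other families spread over the genome, 11 were tested. In these, 0 were called between populations by edgeR's quasi-likelihood test and by DESeq2, and 3 had an unadjusted p under 0.05, against 8.99% of all genes, namely Pcdh19, Pcdh10 and Pcdh18. Pcdh10 averaged 67.1 ± 38.7 CPM in GFP+ cells against 97.1 ± 74.5 CPM in GFP- cells (SD, n = 5 each), and its log2 difference was -0.52 (SE 0.22). Pcdh19, whose protein partners N-cadherin, averaged 181 ± 67.7 CPM in GFP+ cells against 217 ± 95.7 CPM in GFP- cells, and Pcdh18 122 ± 63.9 CPM against 149 ± 51.5 CPM (SD, n = 5 each). The log2 difference of Pcdh19 was -0.29 (SE 0.12), but it was higher in GFP+ cells in 2 of 5 pairs, models D and E. Pcdh10 and Pcdh18 were each higher in GFP+ cells in 1 of 5 pairs. The median fitted difference over the 11 genes was -0.14. Between models 8 of 11 (72.73%) were called, against 54.7% of all genes, with Pcdh9, Pcdh17 and Pcdh10 at the smallest p and all 3 lowest in model C, where the clustered beta genes stood highest.

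Of 11 genes for promoter choice and looping, 0 were called between populations by edgeR or DESeq2. At an unadjusted p under 0.05 there were 0, against 8.99% of all genes. Between models 7 (63.64%) were called, against 54.7% of all genes, with a median log2 range of 0.82 against 0.95. Ctcf, the insulator protein that binds the variable promoters, averaged 71.8 ± 16.0 CPM in GFP+ cells against 71.0 ± 22.4 CPM in GFP- cells (SD, n = 5 each). It was called between models, highest in model C, as were the cohesin ring gene Smc3 and the cohesin regulator Pds5b, both lowest in model C. Stag1, Nipbl and Smc3 had the smallest p between populations, with log2 differences of -0.11, 0.16 and 0.13.

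Of 11 genes for silencing, 0 were called between populations by either tool. At an unadjusted p under 0.05 there was 1 gene of the 11, against 8.99% of all genes. That was Uhrf1, which guides maintenance methylation, with 58.0 ± 16.3 CPM in GFP+ cells against 40.8 ± 19.8 CPM in GFP- cells (SD, n = 5 each). Smchd1, a repressor of the clusters in mouse, averaged 77.2 ± 11.4 CPM in GFP+ cells against 66.0 ± 7.86 CPM in GFP- cells. Its log2 difference was 0.19 (SE 0.13), but it was higher in GFP+ cells in 2 of 5 pairs, models B and D. In models A, C and E it was slightly lower in GFP+ cells. Without model D its fitted difference was 0.087. Between models 3 of 11 (27.27%) were called, against 54.7% of all genes, the histone methyltransferase gene Setdb1 and the DNA methyltransferase genes Dnmt3a and Dnmt1, while Smchd1 had a log2 range of 0.20 and was not called.

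Of 13 tested genes for signalling partners of protocadherins, 0 were called between populations by edgeR's quasi-likelihood test. DESeq2 called 1, against 1.42% of all genes, and 5 had an unadjusted p under 0.05, against 8.99% of all genes. The gene DESeq2 called (adjusted p = 0.023) was Cyfip2, a subunit of the actin-regulating WAVE complex, with 20.2, 8.20, 1.85, 17.4 and 4.78 CPM in GFP+ cells of models A to E against 12.5, 4.53, 0.440, 5.01 and 3.69 CPM in GFP- cells. Its log2 difference was 1.03 (SE 0.26) with an adjusted p of 0.37 by edgeR, and it was higher in GFP+ cells in 5 of 5 pairs. Without model D the difference was 0.84, with an adjusted p of 0.836 by edgeR. The tyrosine kinase gene Fyn averaged 49.7 ± 11.6 CPM in GFP+ cells against 39.5 ± 10.9 CPM in GFP- cells, and Marcks 232 ± 49.6 CPM against 323 ± 123 CPM (SD, n = 5 each). Between models 6 of the 13 (46.15%) were called, against 54.7% of all genes, with Wasf1, Cyfip2 and Fyn at the smallest p.

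The sorted cells held Schwann lineage RNA unevenly and little RNA of blood cells. The sum of 14 Schwann lineage markers was 67.4 to 459 CPM in GFP+ cells against 69.8 to 206 CPM in GFP- cells, and it was higher in GFP+ cells in models C and D. Its most abundant member, Pmp22, with 81.4 CPM in GFP+ cells against 95.9 CPM in GFP- cells, went against most of the list. Of 12 tested markers 10 had a positive fitted difference and 8 had an unadjusted p under 0.05, against 8.99% of all genes. EdgeR called 0 of them and DESeq2 called 3, against 0% and 1.42% of all genes. Sox10, the lineage's master transcription factor, averaged 36.5 ± 47.4 CPM in GFP+ cells against 2.60 ± 3.20 CPM in GFP- cells (SD, n = 5 each), and its log2 difference was 3.61 (SE 0.40). Model D had its highest GFP+ value, 112 CPM against 3.69 CPM in GFP- cells. GFP+ cells were higher in 5 of 5 pairs, but models A and E had very little Sox10 in either population. Model A had 0.111 CPM in GFP+ cells against 0.0514 CPM in GFP- cells, and model E 0.434 CPM against 0 CPM. The part of these markers in the members' differences was not tested. The sum of 10 immune markers was 8.64 to 16.9 CPM in GFP+ cells against 7.93 to 22.6 CPM in GFP- cells, most of it Cd68, and Cd3e was at 0 in GFP+ cells. The sum of 8 endothelial and pericyte markers was 41.9 to 68.2 CPM in GFP+ cells against 32.4 to 111 CPM in GFP- cells. Its most abundant member on average was Cspg4, and in GFP- cells of model D, the highest library, it was Rgs5, with 63.8 CPM. Gap43 was the most abundant neuron marker, with 84.9 CPM in GFP+ cells against 52.0 CPM in GFP- cells, and Col3a1 the most abundant fibroblast marker.

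Some members share their place with a gene on the opposite strand, and counts that ignore strand drop reads in such overlaps. Pcdhgc3 overlaps the antisense gene BC037039, and without strand it kept 42.3% of its reads. Pcdhga10 kept 0%, Pcdhga11 50.0%, Pcdhga12 59.8%, Pcdhgb7 62.9% and Pcdhb12, which overlaps the antisense gene Gm37446, 31.5%, while the other beta genes lost none. With those counts 26 of 36 members were called between models and 0 between populations by edgeR.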

How the data were processed

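RNA of sorted GFP+ and GFP- tumour cells from 5 allograft models was measured, with 10 libraries grouped by the labels. The authors deposited raw read counts per gene, not normalized; per the submitters' processing notes they used STAR 2.4.2.8 and mm10, the annotation and the strand setting being not given in the sources used here. Each table has STAR's gene count layout, and the column of the second strand setting was taken, since it held 96.9% to 97.1% of stranded reads. The 4 summary lines (21.3% to 24.3% of reads, of which multiply mapped reads were 5.99% to 9.74% and ambiguous reads 1.05% to 1.21%) were left out. Near-identical exons of neighbouring members can lose reads this way, so those levels are uncertain. Symbols came from GENCODE vM21, which matched 46005 of 46517 identifiers. It names a pair of identifiers Pcdha11, and the one at the RefSeq position of Pcdha10 was called that. Pcdhgb8, a polymorphic pseudogene, was left out by the rule. Own exon bases are exon positions that no other gene on the strand covers.

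Genes were tested in R 4.3.3 with the quasi-likelihood method of edgeR 4.0.16, using TMM scaling, filterByExpr, the model letter as a block and Benjamini-Hochberg adjustment over 13986 genes; the same fit gave the F test between models. SEs came from the F statistic. The design text states a paired comparison, and libraries with 1 letter are of 1 tumour model; after subtracting the population means, the libraries of a pair correlated at 0.628 to 0.867. Where nothing says that models are separate animals, p-values measure only the spread between these samples. DESeq2 1.42.0, other scalings, filters, strand handling and left-out models were alternatives. Scripts were tested on simulated data. Members and lists were chosen with earlier results of these data known. Named were all beta genes, the 3 most abundant genes of each other group, the 5 members and 3 list genes with the smallest p in each test, and the most abundant marker of each list; other named genes were chosen after their values were seen. No sequence is shown.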

Additional observations from a re-analysis of the deposited data

Results flagged for a closer look

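Dixon's criterion for 5 values flags about 1 in 20 groups by chance where values are independent and normally distributed. The groups here share tumour models and neighbouring genes, so that rate does not measure an excess over chance in them. In 17 of 80 groups of 5 libraries checked (21.2%), the highest library stood apart from the other 4 by this criterion. In model B these were the summed alpha level in GFP+ cells (5.49 CPM, the next 1.70), Pcdhgc4 in GFP+ cells (10.3 CPM, the next 5.17) and, in GFP- cells, Pcdhb6 (3.08 CPM), Pcdhb7 (7.16 CPM), Pcdhb8 (4.03 CPM), Pcdhgb4 (17.8 CPM) and Pcdhgb5 (29.6 CPM). In model C they were Pcdhb14 (7.39 CPM), Pcdhb16 (27.0 CPM) and Pcdhb21 (9.02 CPM) in GFP+ cells, and Pcdhb9 (3.52 CPM), Pcdhb18 (10.02 CPM) and Pcdhb21 (10.8 CPM) in GFP- cells. In model A, Pcdhga6 stood apart in GFP+ cells (6.95 CPM, the next 1.81) and in GFP- cells (8.53 CPM, the next 1.63). In model D, Pcdhb15 (4.26 CPM) and Pcdhgb1 (6.51 CPM) stood apart in GFP- cells. The neighbouring genes Pcdhb6, Pcdhb7 and Pcdhb8 stood apart together in GFP- cells of model B.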

How the results depend on the processing

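Between populations, 0 members were called in every alternative run, among them the fit with no replicate block, in which the tumours are not paired; the count over all genes was 0 with edgeR, 47 with no filter on low counts and 195 with DESeq2. Between models, leaving out 1 model gave 17 to 30 called members and 4038 to 7545 called genes, against 27 and 7655, the lowest counts without model C. Of the 27 called members, 16 kept the call in every alternative that tested them and 11 lost it in at least 1, 10 of them without model C (8 beta genes, 2 gamma A genes) and 5 without model E; the cause was not tested. The mean beta difference within pairs was 0.0055 and changed sign without model A (-0.33) and with TMM-scaled totals (-0.03). The median number of members per library above the level set moved with that level: alpha 0 at 1 CPM, beta 18.5 at 0.2 CPM, gamma 21 at 0.2 CPM and 19 at 1 CPM, and gamma 19 with counts that ignore strand. For members with few reads counting error is large, and 0 of the 14 alpha genes passed the filter, so the tests given for them used no filter.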
